A study of Homo sapiens with 16 samples.

Results

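The data described here compare si47, an siRNA against TPX2, with a non-targeting control siRNA (siNTC) in IMR32 cells. IMR32 is an established human neuroblastoma line with amplified MYCN, and every library came from this single line. The series holds 16 libraries, and the comparison uses 8 of them, 4 given si47 (genotype TPX2 knockdown) and 4 given siNTC (genotype control). The other 8 libraries carry the siRNAs si45 and si46, also against TPX2. The column names give 48 h for all groups, and the labels give no siRNA dose. The replicates are called biological in the design text, which does not say whether they were separate cultures on separate days, so p-values measure the spread between these libraries. RNA was counted from its 3' ends (QuantSeq), so every gene is described by counts near its last exon. All 14193 genes that passed a filter on low counts, of 58787 gene identifiers in the table, are described.

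TPX2 is a microtubule-associated protein that binds and activates the mitotic kinase AURKA and nucleates microtubules around chromosomes. Its transcript belongs to the set that dividing cells raise in G2 and mitosis. In cells with intact p53, faults in spindle assembly or in DNA can stabilise the protein, which then switches on genes of cell cycle arrest, cell death and repair. CDKN1A, a CDK inhibitor, is the best known of these, and by keeping RB family proteins active it lowers the transcription of genes with E2F and CHR promoter elements.

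The si47 libraries held 5634099 to 6259232 counts and the siNTC libraries 5336540 to 6301696, a difference within their spread (p = 0.714, two-sided exact permutation test of totals). At least 99.6% of each library's counts fell in the tested genes. The labels give the tissue as brain and the cell type as neuroblast. All 10 adrenergic neuroblastoma markers examined (among them PHOX2A and DBH) passed the filter, and their summed level was 6234 to 6777 CPM (counts scaled to a common library size) in siNTC and 7044 to 8042 CPM in si47. The 4 markers of brain glia summed to at most 0.675 CPM in any of the 8 libraries, with AQP4 and OLIG2 at 0. Mesenchymal markers summed to 38.7 to 65.2 CPM in siNTC and 34.5 to 65.5 CPM in si47 with PRRX1 at 0, Schwann cell markers to at most 10.2 CPM with SOX10 at 0, leukocyte markers to at most 3.69 CPM with CD3E at 0, endothelial markers to at most 1.51 CPM with VWF at 0, and epithelial markers to at most 9.62 CPM with KRT5 at 0. On the first principal component, with 21.9% of the variance of all 16 libraries, si47 replicate 3 was at 1.60, the other si47 libraries at 20.5 to 31.3 and the siNTC libraries at -36.4 to -28.6. The replicate numbered 3 was the lowest on it in each group, at -17.9 with si45 (the others -0.84 to 15.2), -6.28 with si46 (8.76 to 22.7) and -36.4 with siNTC.

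TPX2 itself (ENSG00000088325, GRCh38 chr20:31739271-31801805, plus strand) checks the labels. Its level was 315, 339, 297 and 359 CPM in siNTC replicates 1 to 4 and 68.7, 69.7, 76.3 and 71.3 CPM in si47 replicates 1 to 4. The groups did not overlap, and si47 replicate 3 was not set apart at this gene. The mean went from 327 ± 27.1 CPM (SD, n = 4) to 71.5 ± 3.37 CPM, which is 21.8% of the control level (20.98% to 23.3% by library). The log2 fold change was -2.20 with a standard error of 0.123 (adjusted p = 3.51e-13, edgeR's quasi-likelihood test with Benjamini-Hochberg adjustment over all genes, used throughout). The exact two-sided permutation test of 4 against 4 libraries gave 0.0286, the smallest p it can give.

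si47 changed 1382 of the 14193 genes (9.74%) at an adjusted p under 0.05, 697 higher (4.91%) and 685 lower (4.83%). The counts of the directions were alike but the sizes were not. Among the higher genes 288 were past 2-fold (2.03% of genes tested), and among the lower genes 46 were (0.324%). That is 41.3% of the higher and 6.72% of the lower genes. Of the 288, 44 had at most 3 counts in every siNTC library, and the part of starting level in these sizes was not tested. The median log2 fold change was 0.78 for the higher genes, -0.53 for the lower genes and 0.00 for all genes tested. The higher genes started from a median of 17.4 CPM in the controls and the lower genes from 72.9 CPM, against 19.6 CPM for all genes. Of the higher genes, 587 had all si47 libraries above all siNTC libraries, a pattern seen in 7.41% of genes tested, and 561 of the lower genes had the reverse, seen in 6.98%. Without si47 replicate 3 the count was 1664 genes (838 higher, 826 lower), of which 1266 were among the 1382; without si47 replicate 1 it was 932, with 406 lower.

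**Figure D1:**
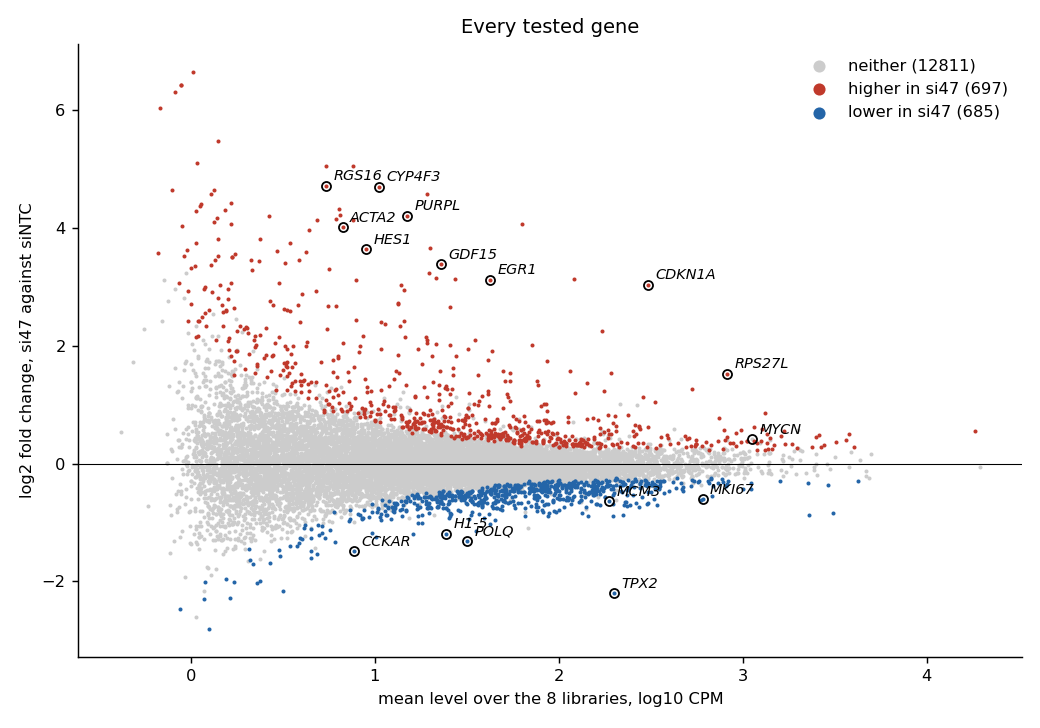
Log2 fold change of si47 against siNTC (y axis) plotted on the mean level over the 8 libraries (x axis, log10 CPM), 1 point for each of the 14193 tested genes, with genes higher and lower at an adjusted p under 0.05 in colour. Genes such as CDKN1A, EGR1 and PURPL sit at 3 or more above the axis, while TPX2 at -2.20 lies below most of the 685 lower genes, of which 46 are past 2-fold.

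Targets of p53 were higher in each of the 3 lists that group them by function. Of 25 tested targets in arrest and feedback, 18 were higher and 0 lower, with a median log2 fold change of 1.36, and 15 were past 2-fold. Of 17 tested targets in cell death, 11 were higher and 0 lower, with a median of 0.998. Of 24 tested targets in repair and metabolism, 14 were higher, with a median of 0.72. The share of all tested genes that was higher was 4.91%. With any 1 of the 8 libraries left out the counts ran from 17 to 19, from 8 to 12 and from 14 to 17. 1 member, TP53I11, was lower, a call lost without si47 replicate 1, 2 or 4 or siNTC replicate 2, 3 or 4. In bulk RNA a change in the share of cells that express a gene and a change of RNA per cell cannot be told apart.

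Among the arrest genes, CDKN1A (ENSG00000124762) stood at 58.5, 33.6, 83.4 and 91.3 CPM in the controls and at 583, 649, 406 and 551 CPM with si47. Every si47 library was above every control, replicate 3 the least. Its log2 fold change was 3.04 ± 0.261 (SE; adjusted p = 1.02e-05). An antisense gene overlaps it, and whether counting used strand is not given in the sources used here. MDM2, the ubiquitin ligase that p53 induces and that degrades p53, went from 104, 93.1, 92.3 and 104 CPM to 297, 357, 215 and 272 CPM. Its groups were again separate, with the lowest si47 value in replicate 3 (log2 fold change 1.53 ± 0.141, adjusted p = 3e-07). PHLDA3, an inhibitor of AKT signalling, went from 9.02 to 18.0 CPM in the controls to 51.1 to 64.4 CPM (2.10 on the log2 scale), BTG2, an antiproliferative regulator of mRNA decay, from 3.40 to 7.05 CPM to 18.6 to 27.8 CPM (2.15), and SESN1, an inhibitor of mTORC1, rose by 2.15. PLK2 and the secreted factor GDF15 rose by 2.65 and 3.38. MDM4 at -0.05 (adjusted p = 0.804) and E2F7 at -0.08 (adjusted p = 0.806) are members that did not pass the test.

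Among the cell death genes the largest rise was that of BBC3 (ENSG00000105327), which encodes the BH3-only protein PUMA. BBC3 stood at 21.2, 26.4, 24.8 and 26.7 CPM in the controls and at 239, 270.0, 154 and 207 CPM with si47. No control library came near an si47 library (log2 fold change 3.13 ± 0.247, adjusted p = 2.73e-06). BAX, the pore-forming effector that such proteins activate, went from 36.1, 20.8, 24.0 and 16.5 CPM to 47.2, 51.3, 50.4 and 46.1 CPM (0.998, adjusted p = 0.000157). The death receptors TNFRSF10B and EDA2R rose by 1.54 and 2.04. FAS, another death receptor, was at 0.641, 1.09, 0.189 and 0 CPM in the controls and at 3.77, 3.45, 0.672 and 1.35 CPM with si47. Its groups overlapped through si47 replicate 3 and its log2 fold change of 2.17 did not pass the test (adjusted p = 0.0544, and 0.0234 without that library or 0.0353 without siNTC replicate 2). ACTA2, smooth muscle actin, lies on the opposite strand at FAS, and reads of these genes cannot be told apart if counting ignored strand. ACTA2 went from 0.802, 0.469, 0.567 and 1.21 CPM to 11.6, 18.1, 8.06 and 12.7 CPM, without overlap (4.01, adjusted p = 4.25e-09). Outside p53's targets, the BCL2 family and caspases had a median of 0.00 over 20 tested members.

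The repair and metabolism targets had the lowest median of the 3 lists, with a wide range that reached 4.70 at CYP4F3. RPS27L (ENSG00000185088), a ribosomal protein paralog induced by p53, had the lowest p of the higher genes. It stood at 406, 400.4, 452 and 444 CPM in the controls and at 1263, 1384, 1195 and 1059 CPM with si47, an even rise in which replicate 3 was not the lowest. The log2 fold change was 1.53 ± 0.0975 (adjusted p = 3.51e-13), though reads of RPS27L and its near copy RPS27 may have been shared in counting. XPC, which recognises damaged DNA in nucleotide excision repair, rose by 0.89, and FBXO22 by 0.80. RRM2B, the p53-induced subunit of ribonucleotide reductase, rose by 1.55 while RRM2, the subunit of S phase, fell by 0.57 on the log2 scale (adjusted p = 0.000268).

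Long non-coding RNAs linked to p53 had 5 higher members of 13 tested, 0 lower and a median of 0.56. PURPL (ENSG00000250337), a transcript that p53 induces, stood at 1.44, 1.56, 1.32 and 1.73 CPM in the controls and at 34.4, 32.7, 19 and 27.8 CPM with si47. The rise was seen in every si47 library, the least in replicate 3 (4.21 ± 0.289, adjusted p = 4.7e-12). PINCR had 7 counts over the control libraries and 250 over the si47 libraries, a ratio of 35.2 after scaling (95% interval 16.8 to 88.4, counting error only). MIR34AHG, the host of a p53-induced microRNA, had 7 and 106 counts, a ratio of 14.9 (95% interval 6.99 to 37.99). The p53 consensus, searched on both strands as 2 decamers up to 13 bases apart, lay in the window from 250 bases before to 50 bases after the start of 0.0312% of tested protein-coding genes (3 of 9617), 0.0293% of all windows, 1 of 21 arrest targets, 0 of 16 death targets and 0 of 19 repair targets. The consensus lay in 0 of 444 windows of higher and 0 of 504 windows of lower protein-coding genes. The arrest target with a match was therefore not among the called genes. A match describes letters in this window and no match says nothing of more distant sites. The window of PURPL, from RefSeq on GRCh38.p14 at chr5:27472160-27472189, plus strand, is shown because it holds such a match (capitals), 127 bases before the start.
PURPL: gcccaGGGCTTGTCTGGGCATGCCCacagt

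**Figure D2:**
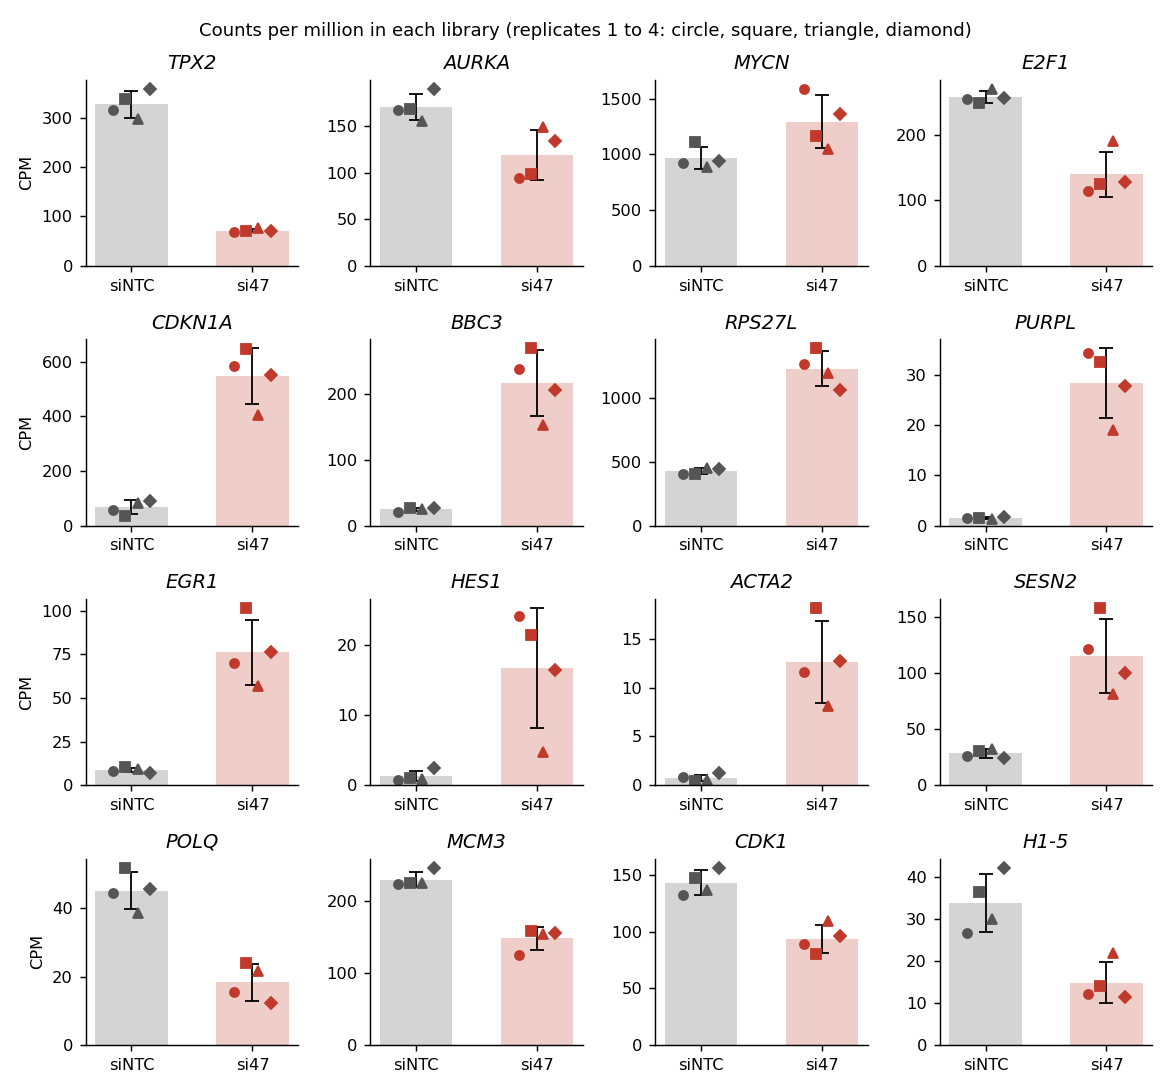
Level in CPM (y axis, linear from 0 in each panel) of 16 genes in the siNTC and si47 libraries, with bars for the mean of 4 libraries, error bars for the SD and 1 point per library shaped by replicate number. TPX2 is lower in every si47 library, at 21.8% of the control mean, CDKN1A, BBC3 and PURPL rise in every si47 library, and replicate 3 gives the lowest si47 point for these risers.

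Of 58 tested genes for origins and forks, 37 (63.8%) were lower and 0 higher, with a median log2 fold change of -0.46, against 4.83% lower among all genes, and 36 had all si47 libraries below all controls (6.98% of all genes). The count was 33 to 37 with any 1 library left out. MCM3 (ENSG00000112118), a subunit of the replicative helicase, stood at 223, 224, 224 and 246 CPM in the controls and at 124, 158, 154 and 155 CPM with si47. The groups were well apart, and replicate 1, not 3, differed most (-0.64 ± 0.0981, adjusted p = 3.14e-05). MCM4 and MCM7, further helicase subunits, fell by 0.66 and 0.37 on the log2 scale. CDT1, which loads that helicase onto origins, went from 55.2, 61.5, 55.8 and 60.4 CPM to 31.4, 33.6, 38.3 and 34.9 CPM (-0.75). POLD1, the catalytic subunit of a replicative polymerase, was at -0.89 (adjusted p = 0.00228). Of 33 tested genes of nucleotide synthesis and transport 11 were lower and 0 higher, with a median of -0.10. They include TK1, thymidine kinase, at 51.6, 46.5, 55.0 and 53.6 CPM in the controls and 20.7, 25.2, 39.1 and 23.9 CPM with si47 (-0.92).

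Recombination, Fanconi anaemia and end-joining genes had 24 of 54 tested members lower, 0 higher and a median of -0.39 (19 to 23 lower with 1 library left out). POLQ (ENSG00000051341), the polymerase of microhomology-mediated end joining, fell the most of them. It stood at 44.6, 51.9, 38.6 and 45.6 CPM in the controls and at 15.4, 24.1, 21.5 and 12.2 CPM with si47, with replicates 1 and 4 the lowest (-1.31 ± 0.168, adjusted p = 1.64e-06). BRCA2, a core factor of homologous recombination, went from 122, 119, 111 and 100.1 CPM to 65.9, 62.2, 69.2 and 46.6 CPM (-0.89, adjusted p = 1.97e-06). BRCA1 was at -0.71 (adjusted p = 1.14e-05) and FANCD2, the protein that the Fanconi core complex ubiquitinates, at -0.84 (adjusted p = 2.31e-05). Chromatin inheritance genes had 13 of 31 tested members lower, 8 without si47 replicate 1. They include HELLS, a chromatin remodeler of DNA methylation, at 349.5, 383, 319.6 and 316 CPM in the controls and 199, 216, 207 and 204 CPM with si47. Its si47 values were close to each other and all below the controls (-0.73, adjusted p = 1.95e-07). CHAF1A, which deposits histones behind forks, and ATAD2 were at -0.70 and -0.87.

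Of 29 tested genes of mitotic entry 16 were lower and 0 higher, with a median of -0.35 (12 to 16 lower with 1 library left out). Without siNTC replicate 1 or 4 another member was higher, 1 gene in each case. CDK1 (ENSG00000170312), the kinase of mitotic entry, stood at 133, 147, 137 and 157 CPM in the controls and at 89.0, 80.0, 109 and 96.5 CPM with si47. The groups did not overlap (-0.61 ± 0.0961, adjusted p = 3.85e-05). AURKB, of the chromosomal passenger complex, and PKMYT1, an inhibitory CDK1 kinase, were both at -0.69, and FOXM1, a transcription factor of G2 genes, at -0.45 (adjusted p = 0.00356). Members that did not pass include CCNB1, PLK1 and CDC20. CCNB1, cyclin B1, was at 106, 137, 114 and 156 CPM in the controls and 129, 79.3, 133 and 115 CPM with si47. PLK1 was at 138, 167, 158 and 162 CPM and 122, 114, 158 and 145 CPM, and CDC20, an activator of the anaphase-promoting complex, at 53 to 55.8 CPM and 41.5 to 61.8 CPM. The groups overlapped at all 3 genes, with log2 fold changes of -0.17 (adjusted p = 0.46), -0.21 (0.281) and -0.03 (0.941). Whether these genes differ from the lower ones was not tested.

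AURKA (ENSG00000087586), the kinase that TPX2 activates, was at 168, 168, 156 and 190.1 CPM in the controls and at 94.5, 98.3, 149 and 134 CPM with si47. All si47 values were below all controls, but replicates 3 and 4 were close to them. The log2 fold change was -0.52 ± 0.151 (adjusted p = 0.0343). The call was lost without si47 replicate 1 (0.111) or 2 (0.0987) and without siNTC replicate 1 (0.069), 2 (0.0769) or 4 (0.102). Genes of the PIDDosome and of mitotic surveillance act when centrosomes are in excess or mitosis is prolonged. Of 16 tested, 6 were lower (37.5%, against 4.83% of all genes) and 1 was higher (6.25%, against 4.91%), with a median of -0.31. The lower count was 3 without si47 replicate 1. The higher member was PIDD1, a call lost without si47 replicate 1 or 2 or siNTC replicate 4. CEP152, a scaffold of centriole duplication, was at -0.71.

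Centromere and kinetochore genes had 20 of 41 tested members lower and 0 higher, with a median of -0.36, and 13 lower without si47 replicate 2. HJURP, the chaperone of the centromeric histone, stood at 102, 95.1, 106 and 108 CPM in the controls and at 56.1, 55.2, 69.6 and 57.4 CPM with si47, with replicate 3 the highest of the si47 libraries (-0.79). Spindle, kinesin and cytokinesis genes, with TPX2 set aside, had 24 of 54 tested members lower and 0 higher, with a median of -0.36 (17 to 30 lower with 1 library left out). ASPM, a spindle pole protein, went from 673, 779.6, 736 and 685 CPM to 496, 409, 529 and 438 CPM (-0.62, adjusted p = 1.19e-05). KIF14 and KIF15, motor proteins of cytokinesis and of the spindle, were at -0.61 and -0.53. Condensin, cohesin and topoisomerase genes had 11 of 22 tested members lower and 0 higher (8 to 11 with 1 library left out), led by TOP2A at -0.88 (adjusted p = 0.00553). MKI67, the proliferation antigen that coats mitotic chromosomes, went from 755, 774, 699.6 and 686 CPM to 476, 433, 542 and 475 CPM (-0.60, adjusted p = 1.39e-05). Of the spindle checkpoint and anaphase-promoting complex 7 of 33 tested members were lower (21.2%, against 4.83% of all genes), with a median of -0.20, and 4 without si47 replicate 1 or 4 or siNTC replicate 2 and 3 without siNTC replicate 4.

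E2F factors and pocket proteins had 6 of 18 tested members lower and 1 higher, the latter call lost without si47 replicate 2 or siNTC replicate 2. E2F1 (ENSG00000101412), an activator of S phase genes, stood at 254, 248, 270.1 and 256 CPM in the controls and at 115, 124, 190.0 and 128 CPM with si47. Replicate 3 was again closest to the controls, which varied little (-0.88 ± 0.132, adjusted p = 9.78e-05). RBL1, the pocket protein p107, went from 39.4, 48, 39.7 and 42.8 CPM to 16.7, 21.8, 29.7 and 20.7 CPM (-0.94), and E2F2 and MYBL2, a partner of the MuvB complex at G2 genes, were at -0.78 and -0.70. G1 cyclins, kinases and inhibitors had 2 higher and 2 lower of 16 tested, with a median of 0.00. Without single libraries the higher count was 1 (si47 replicate 1 or siNTC replicate 1, 2 or 4) or 0 (siNTC replicate 3), and the lower count 1 (si47 replicate 1 or siNTC replicate 1).

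Promoter letters were counted in the replication, recombination and mitosis genes and in the p53 and immediate early lists. Windows from 250 bases before to 50 bases after the start were taken from RefSeq (GRCh38.p14) for 9617 tested protein-coding genes. Each was searched on both strands for E2F words (TTTCCCGC, TTTCGCGC, TTTGGCGC or TTTGCCGC), for the CHR words TTTGAA or TTCGAA, and for CCAAT, and a window could hold several of these. E2F words lay in 5.52% of the tested genes' windows, in 3.33% of all 27305 windows, in 12.9% of those of lower genes and in 4.73% of those of higher genes. CHR words lay in 10.9%, 16.6%, 18.5% and 9.23% and CCAAT in 37.3%, 35.7%, 43.5% and 42.3% of the same sets. Among list members with a window, E2F words were found in 43.8% of replication genes (21 of 48) and in 8.33% of mitotic entry, 15.2% of kinetochore and 9.8% of spindle genes. CHR words were found in 6.25% of replication genes (3 of 48), in 50% of mitotic entry genes (12 of 24), in 48.5% of kinetochore genes (16 of 33) and in 52.9% of spindle genes (27 of 51). Recombination genes had E2F words in 13.3% and CHR words in 11.1%. In lists that rose, E2F words lay in 14.3% of p53 arrest, 6.25% of death and 15.8% of repair targets and in 0% of immediate early genes. CHR words lay in 9.52%, 6.25%, 21.1% and 23.8% of these. E2F shares of the mitosis lists were thus like those of some lists that rose. A match is a description, not a site or a cause.

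Stretches of 30 bases around the words are shown, on the gene's strand, for genes whose values are given above. Only the word nearest the start is marked, and the RBL1 stretch holds another E2F word, TTTCGCGC, in lower case. The marked E2F words are in capitals in the first 5, from chr10:94545769-94545798 (HELLS, plus), chr6:52284728-52284757 (MCM3, minus), chr16:88803743-88803772 (CDT1, plus), chr20:33686387-33686416 (E2F1, minus) and chr20:37095995-37096024 (RBL1, minus).
HELLS: gatgacaggatTTTCCCGCgaaggagaagc
MCM3: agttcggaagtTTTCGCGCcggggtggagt
CDT1: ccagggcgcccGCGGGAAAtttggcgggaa
E2F1: ggcaaaaaggaTTTGGCGCgtaaaagtggc
RBL1: ttttcgcgcgcTTTGGCGCaggtggttgtg
The CHR words are in capitals in the next 6, from chr10:128126435-128126464 (MKI67, minus), chr10:60778158-60778187 (CDK1, plus), chr1:200620733-200620762 (KIF14, minus), chr1:197146765-197146794 (ASPM, minus), chr2:233854629-233854658 (HJURP, minus) and chr3:121545968-121545997 (POLQ, minus).
MKI67: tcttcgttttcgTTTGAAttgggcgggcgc
CDK1: gagtataataaaTTTGAActgtgccaatgc
KIF14: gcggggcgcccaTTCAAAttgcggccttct
ASPM: cggatgcaatcaTTCAAAtgaagcgccgcc
HJURP: gacgcaaatttgTTTGAAaggcccaatcag
POLQ: gggaggtttgagTTTGAAgactggcgggaa

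**Figure D3:**
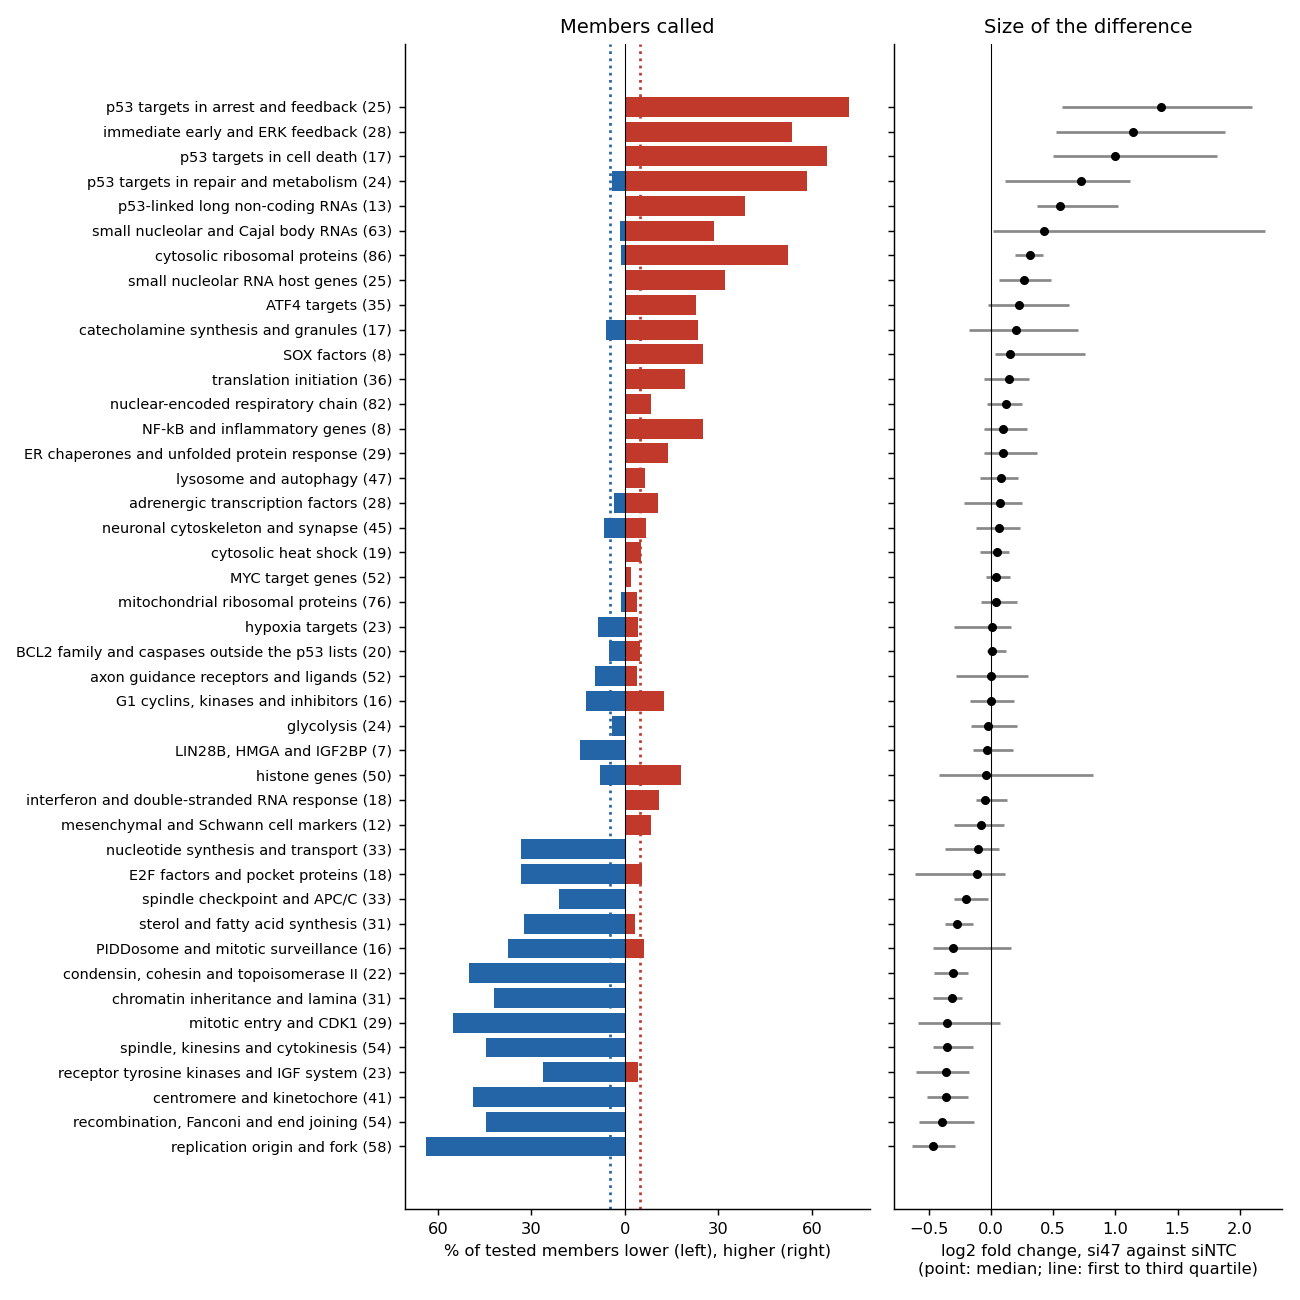
Left panel, percent of each list's tested members that were lower (left of 0) or higher (right of 0) with si47 at an adjusted p under 0.05. Right panel, median log2 fold change of the tested members with its quartiles, for the same lists. Dotted lines mark the shares over all genes tested (4.83% lower, 4.91% higher). The p53 lists and the immediate early genes lie to the right, replication genes reach 63.8% lower on the left, and MYC targets and glycolysis stay near 0.

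Immediate early genes and ERK feedback genes, which growth factor and stress signals switch on within minutes, had 15 higher of 28 tested and 0 lower, with a median of 1.15, and 13 of them were past 2-fold (13 to 16 higher with 1 library left out). EGR1 (ENSG00000120738), a zinc finger factor of this class, stood at 8.02, 10.2, 9.27 and 7.29 CPM in the controls and at 70.1, 102, 57 and 76.2 CPM with si47. Controls and si47 libraries were far apart (3.13 ± 0.355, adjusted p = 9.24e-05). JUN, a subunit of AP-1, went from 65.1, 64.0, 48.6 and 62.1 CPM to 313, 367, 160.0 and 303 CPM (2.25, adjusted p = 0.000742), and FOS, its partner, rose by 2.41. The feedback genes DUSP6, an ERK phosphatase, and SPRY2, an inhibitor of receptor signalling, rose by 2.37 and 1.63, the ETS factor ETV4 by 2.28 and KLF4 by 2.92. IER3 and IER5 rose by 1.40 and 1.2, and both are also known to respond to p53. HES1, a Notch-regulated repressor, rose unevenly. It stood at 0.802, 1.09, 0.946 and 2.43 CPM in the controls and at 24.0, 21.4, 4.70 and 16.4 CPM with si47, with replicate 3 far below the other si47 libraries and still above every control (3.65 ± 0.709, adjusted p = 0.00543).

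Targets of ATF4, the factor of the integrated stress response, had 8 higher of 35 tested (22.9%) and 0 lower, with a median of 0.23. Without si47 replicate 2, 1 member was lower. The 8 were ATF3, SESN2, DDIT3, CHAC1, DDIT4, TRIB3, ATF5 and ALDH1L2. SESN2 (ENSG00000130766), which restrains mTORC1 and is a target of p53 as well, stood at 26.3, 30.8, 32.0 and 24.1 CPM in the controls and at 122, 158, 81.0 and 100.1 CPM with si47 (2.02 ± 0.193, adjusted p = 1.63e-06). DDIT3, the factor CHOP, went from 6.41, 7.82, 10.8 and 8.85 CPM to 18.2, 42.5, 18.1 and 31.2 CPM, with replicates 2 and 4 the highest (1.70). CHAC1, DDIT4 and TRIB3 rose by 1.57, 1.51 and 1.40. ATF4 mRNA was at 405, 313, 421 and 375 CPM in the controls and at 317, 415, 383 and 359 CPM with si47, and the groups overlapped (-0.04, adjusted p = 0.866). The amino acid enzyme ASNS, a defining target, was at 0.98 and did not pass (adjusted p = 0.21, and 0.04 without si47 replicate 3). Endoplasmic reticulum chaperones and the unfolded protein response had 4 higher of 29 tested, a count that ran from 0 (without si47 replicate 2 or siNTC replicate 4) to 6. It was 2 without si47 replicate 1 or 4 or siNTC replicate 2 or 3.

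Sterol and fatty acid synthesis genes had 10 lower and 1 higher of 31 tested, with a median of -0.28, and 5 lower without si47 replicate 1, si47 replicate 2 or siNTC replicate 4. FDPS, which makes farnesyl pyrophosphate, went from 289, 236, 243 and 257 CPM to 164, 178, 193 and 199 CPM, without overlap (-0.48, adjusted p = 0.000441). SQLE and ACAT2, of sterol synthesis, were at -0.44 and -0.50, and FADS1, a fatty acid desaturase, at -0.37. The higher member was STARD4, a sterol carrier, at 0.72 (adjusted p = 0.00452). Without si47 replicate 3 the higher members were 2. Glycolysis had 0 higher and 1 lower of 24 tested with a median of -0.03, and the 1 call was lost without si47 replicate 1 or 4 or siNTC replicate 2 or 4.

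MYC target genes had 1 higher and 0 lower of 52 tested, with a median of 0.04. The higher one was ODC1, of polyamine synthesis, at 0.51. Without siNTC replicate 4 there were 2 higher, and without si47 replicate 3 there were 2 lower. MYCN (ENSG00000134323) stood at 919.7, 1108, 891 and 941 CPM in the controls and at 1590.3, 1164, 1048 and 1362 CPM with si47. The groups overlapped, replicate 3 being below the highest control, and the log2 fold change of 0.42 ± 0.154 did not pass (adjusted p = 0.105, and 0.0443 without si47 replicate 3). The antisense gene MYCNOS overlaps MYCN, with the same doubt about strand. Translation initiation factors had 7 higher and 0 lower of 36 tested with a median of 0.15, among them EIF3H at 0.41 and EIF1 at 0.51. That count was 4 without si47 replicate 1 or 2 or siNTC replicate 1, and 3 without siNTC replicate 3 or 4.

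Cytosolic ribosomal protein genes had 45 higher and 1 lower of 86 tested, with a median of 0.31, small shifts of abundant transcripts. The higher count was 26 without si47 replicate 2 or siNTC replicate 1 and 25 without si47 replicate 4. These genes took 8.72%, 9.02%, 9.10% and 9.46% of counts in the controls and 10.6%, 11.6%, 10.1% and 11.6% with si47. RPS19, of the small subunit, went from 1295, 1266, 1432 and 1452 CPM to 1805, 2347, 1684 and 2185 CPM (0.56, adjusted p = 7.29e-05), and RPL30 and RPS27 rose by 0.60 and 0.57. Reads from their many processed copies may have been shared among genes. The lower member was RPL14 at -0.32 (adjusted p = 0.0303), a call lost without si47 replicate 1 or 2 or siNTC replicate 3 or 4. Mitochondrial ribosomal proteins had 3 higher and 1 lower of 76 tested and a median of 0.04, and the nuclear-encoded respiratory chain 7 higher and 0 lower of 82 with a median of 0.12. The former's higher count was 1 without si47 replicate 1 or siNTC replicate 2 or 4 and 0 without si47 replicate 4 or siNTC replicate 3, and its lower call was lost without si47 replicate 1 or 2 or siNTC replicate 1 or 4 and the count was 2 without si47 replicate 3. The latter's count was 4 without si47 replicate 1 or siNTC replicate 2 or 3, 2 without si47 replicate 4 and 12 without si47 replicate 3.

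Small nucleolar and Cajal body RNAs guide modification of ribosomal and spliceosomal RNA, and 63 of their 549 genes passed the filter. Of these 63, 18 were higher (28.6%, against 4.91% of all genes), all 18 past 2-fold, with a median of 0.43. The filter can pass a gene on its counts in the 4 libraries of 1 group. Members near 0 in the controls can thus enter through the knockdown libraries, and this share and median do not describe the whole class. The 1 lower call was lost without si47 replicate 1 or 2 or siNTC replicate 2, 3 or 4. SNORD13, an independently transcribed small nucleolar RNA, stood at 5.61, 9.38, 7.56 and 5.55 CPM in the controls and at 168, 101, 106 and 101 CPM with si47, with replicate 1 above the others (4.08 ± 0.279, adjusted p = 2.18e-07). SNORD46 was at 4.57. SNORD83A, inside RPL3, was at 5.06, and at 6.81 without siNTC replicate 4, which held 8 of its few control counts. With other libraries left out it was at 4.64 or more. SNORD12B, inside ZFAS1, had 3 counts over the controls and 69 over the si47 libraries, a ratio of 22.6 (95% interval 7.43 to 112.5, counting error only). Such RNAs have no long poly(A) tail, the kit primes on poly(A), and reads of an intronic RNA and its host cannot be told apart here. Host genes of small nucleolar RNAs had 8 higher and 0 lower of 25 tested with a median of 0.26 (7 to 10 higher with 1 library left out), among them SNHG8 at 0.71, ZFAS1 at 0.68 and GAS5, also a p53-linked RNA, at 0.70.

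Histone genes, a list added after values were seen, had 9 higher and 4 lower of 50 tested. H2AC25 and H2BC21 rose by 2.73 and 2.17. H1-5, a replication-dependent linker histone, went the other way, from 26.8, 36.6, 30.1 and 42.3 CPM to 12.1, 14.0, 22.0 and 11.3 CPM (-1.19, adjusted p = 5.59e-05). Transcripts of replication-dependent histones end in a stem loop and are mostly not polyadenylated, so the kit sees them in part.

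**Figure D4:**
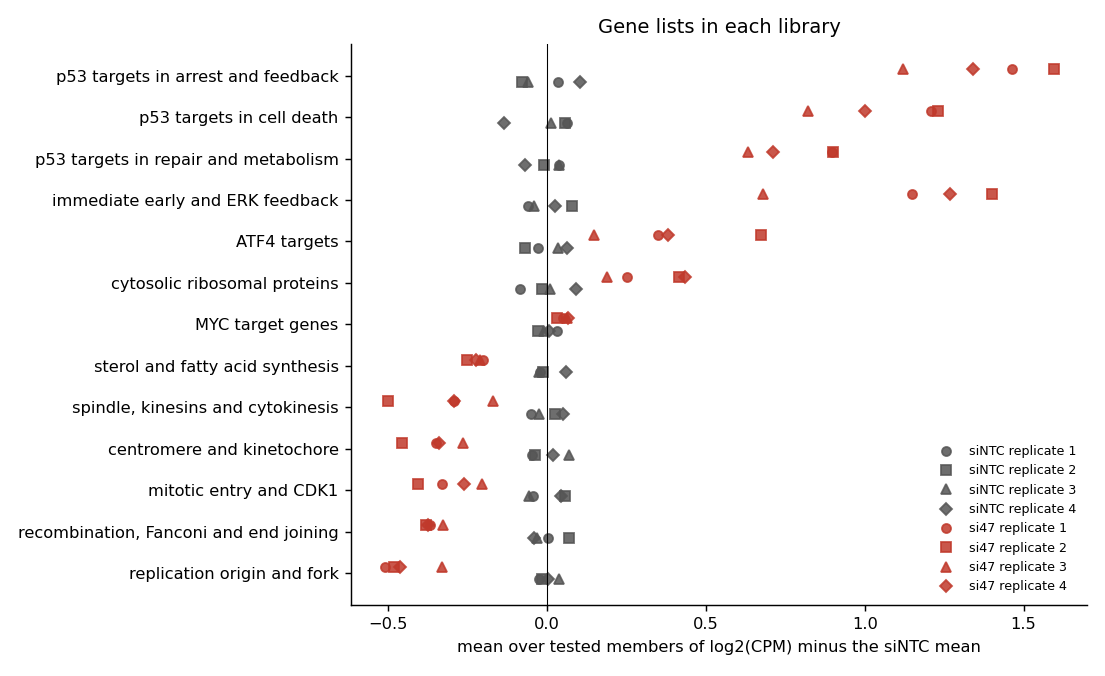
Mean log2 CPM of the tested members of 13 lists in each of the 8 libraries, minus the mean of the siNTC libraries (x axis, log2 units), with the lists on the y axis, 1 point per library with siNTC and si47 in separate colours. In the p53 arrest list the si47 libraries were at 1.46, 1.60, 1.12 and 1.34 and in the replication list at -0.51, -0.48, -0.33 and -0.46, with replicate 3 nearest to 0 in both.

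The response of si47 replicate 3 was smaller across lists. Its mean over the arrest targets was 1.12 log2 units above the controls and those of the other si47 libraries were 1.34 to 1.60. For the immediate early genes it was 0.68 against 1.15 to 1.40, for the ATF4 targets 0.15 against 0.35 to 0.67, and for replication -0.33 against -0.51 to -0.46. MYC targets were at 0.05, 0.03, 0.06 and 0.06 in the 4 si47 libraries. Over all 697 higher genes the median difference from the controls was 0.59 in replicate 3 and 0.81 to 0.87 in the others. Over the lower genes with TPX2 set aside it was -0.36 against -0.60 to -0.53. TPX2 was at 23.3% of control in that library and at 20.98% to 21.8% in the others. With si45 and with si46, too, the library numbered 3 lay nearest to the controls on the first principal component (-17.9 and -6.28), so a smaller departure went with that number and not with si47 alone. What sets these libraries apart was not tested.

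Adrenergic transcription factors had 3 higher (10.7%) and 1 lower of 28 tested, with a median of 0.07. The higher count was 1 without si47 replicate 1 or 2 or siNTC replicate 3 and 0 without siNTC replicate 4, and the lower count was 0 without si47 replicate 1 or 2 or siNTC replicate 2 or 4 and 2 without si47 replicate 3 or siNTC replicate 3. Neuronal cytoskeleton and synapse genes had 3 higher and 3 lower of 45 tested, with a median of 0.06. These are 6.67% each way, near the 4.91% higher and 4.83% lower of all genes. Their lower count was 1 without si47 replicate 1 or 2 and 0 without si47 replicate 4 or siNTC replicate 1. SOX4 (ENSG00000124766), a transcription factor of neuroblasts, stood at 979, 853, 945 and 988 CPM in the controls and at 1743, 1727, 1546 and 1852 CPM with si47, far above every control (0.87, adjusted p = 1.62e-09). Of 17 tested genes of catecholamine synthesis and secretory granules 4 were higher (23.5%, against 4.91% of all genes) and 1 lower. VGF, a granule protein induced by growth factors, went from 65.1, 62.1, 50.1 and 51.5 CPM to 189, 212, 99.3 and 187 CPM, with replicate 3 the lowest si47 library (1.58, adjusted p = 0.0048), and SCG2 and CPE, of the same granules, were at 1.01 and 0.74. DBH, which makes noradrenaline, was the lower member, at 228, 284, 199 and 224 CPM in the controls and 151, 196, 164 and 155 CPM with si47 (-0.49, adjusted p = 0.00122). NEFL, neurofilament light chain, and SYT4, a synaptotagmin, rose by 0.72 and 0.54, beside the 3 lower neuronal cytoskeleton and synapse genes. Of 52 tested axon guidance genes 2 were higher (3.85%) and 5 lower (9.62%, against 4.83% of all genes), with a median of -0.0005. The lower count was 3 without si47 replicate 2 or 4 or siNTC replicate 1 or 4. Members include SEMA5A at -1.02 and the receptors PLXNB2 and PLXNA2 at 0.51 and 0.67. Receptor tyrosine kinases and the IGF system had 6 lower (26.1%, against 4.83% of all genes) and 1 higher (4.35%) of 23 tested. The lower count was 3 without si47 replicate 2 or 4 or siNTC replicate 4 and 2 without si47 replicate 1 or siNTC replicate 2 or 3. The higher member was IRS2 at 0.80, a call lost without siNTC replicate 3. IRS1, an adaptor of the insulin receptors, was at -0.94 and IGFBP5 at -0.73.

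Among stress and immune lists, set beside 4.91% of all genes higher, counts were small. Interferon and double-stranded RNA response genes, which an siRNA can switch on, had 18 of 41 listed members tested, 2 higher (11.1%) and 0 lower, with a median of -0.04. That count was 1 without si47 replicate 3 or siNTC replicate 1, 2 or 3 and 0 without si47 replicate 4 or siNTC replicate 4. Cytosolic heat shock genes had 1 higher of 19 with a median of 0.05 (kept only without si47 replicate 3, where 1 member was also lower), NF-kB genes 2 higher of 8 (25%) with a median of 0.10 (1 without siNTC replicate 1, 2 or 3 and 0 without si47 replicate 1, 2 or 4 or siNTC replicate 4), hypoxia targets 1 higher and 2 lower of 23 with a median of 0.01, and lysosome and autophagy genes 3 higher of 47 with a median of 0.08 (1 without si47 replicate 4, and 1 lower without si47 replicate 3). The lower hypoxia count was 1 without si47 replicate 2 or 4 or siNTC replicate 1, 2 or 4. Markers of mesenchymal and Schwann cells had 1 higher of 12 tested with a median of -0.08, a call lost without si47 replicate 1, 3 or 4 or siNTC replicate 1, 2 or 3.

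Extremes are given among changed protein-coding genes with a mean count of at least 20. The largest rises there included RGS16 at 4.72, CYP4F3 at 4.70, INPP5D at 4.22 and NECTIN4 at 4.15 on the log2 scale. CYP4F3, a fatty acid hydroxylase counted above among the p53 targets in metabolism, stood at 1.28, 0.313, 1.32 and 0.173 CPM in the controls and at 19.5, 30.7, 12.4 and 19.1 CPM with si47. The controls were near the lower limit of detection and every si47 library was above 10 CPM. With that minimum count the lowest protein-coding genes, after TPX2, included CCKAR, a cholecystokinin receptor, at 11.9, 15.2, 7.75 and 10.9 CPM in the controls and 4.56, 2.36, 3.02 and 6.26 CPM with si47 (-1.49, adjusted p = 0.00184), and COL18A1, a collagen of basement membranes, at -1.48 (adjusted p = 0.00369). Over all tested genes of any type and count, 9 lower genes were past 4-fold, TPX2 among them.

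A direct test of si47 against the mean of si45 and si46, in which the siNTC libraries cancel out, called 28 of 14193 genes (0.197%), 13 higher and 15 lower with si47. At an unadjusted p under 0.05 there were 1496 (10.5%). The count was 17, 11, 145 and 9 without si47 replicates 1, 2, 3 and 4. Same-numbered si47, si45 and si46 libraries deviated together, and with the replicate number as a block the count was 405 (181 higher, 224 lower), all 28 among them. TPX2 was not among the 28: it stood at 91.6 ± 19.8 CPM with si45, 81.7 ± 14.3 CPM with si46 and 71.5 ± 3.37 CPM with si47 (difference -0.28 ± 0.107 on the log2 scale, adjusted p = 0.342, and 0.176 with the block). Single si47 and siNTC libraries were left out in turn, but no si45 or si46 library was. The siNTC libraries enter this test only through the shared fit. The call was kept without each si47 and each siNTC library by 6 genes. Among these, SOX4 was higher with si47 than with the other siRNAs by 0.53 (adjusted p = 5.87e-05), at 1134 ± 15.9 CPM with si45 and 1249 ± 107 CPM with si46. MAPK6, an atypical MAP kinase, was higher than the mean of the others by 0.42 (adjusted p = 0.0055), with si45 the group apart. It was at 156 ± 11.1 CPM with si47, 151 ± 7.85 CPM with si46 and 90.0 ± 5.53 CPM with si45, and si47 did not differ from siNTC past the test (0.12, adjusted p = 0.442). ENTREP3 at -0.53, AK4, a mitochondrial adenylate kinase, at -0.86 and the pseudogene RPL14P1 at -0.57 were lower with si47.

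Of the other genes in that direct test, BRCA2 was lower with si47 than with si45 and si46 by 0.58 (log2 difference -0.58, adjusted p = 0.0055, and 0.0724 without si47 replicate 4). ATF5 was higher by 0.93 (adjusted p = 0.0223, and 0.06 without si47 replicate 2) and NHLH1, a neuronal transcription factor, by 0.52 (0.00584, and 0.106 without si47 replicate 2). Among the p53 targets of the 3 lists, CYFIP2, a regulator of actin through the WAVE complex, passed the direct test (0.58, adjusted p = 0.04398), a call lost without si47 replicate 1 (0.175), 2 (0.181) or 4 (0.0524) and without siNTC replicate 1 (0.0729), 2 (0.0597), 3 (0.0663) or 4 (0.0687). With the replicate block 20 of the 66 tested members of these lists were higher with si47 and 0 lower, and without the block CYFIP2 alone passed. BBC3 was higher by 0.73 ± 0.0928 (adjusted p = 2.42e-05) and MDM2 by 0.41 ± 0.0676 (adjusted p = 7.01e-05) in the blocked fit. CDKN1A was at 0.70 ± 0.197 there and did not pass (adjusted p = 0.117). TP53INP1, a p53-induced regulator of death and autophagy, was at 50.9 ± 4.88 CPM with si47, 31.0 ± 2.29 CPM with si45 and 41.6 ± 4.64 CPM with si46 (difference 0.50 ± 0.124, adjusted p = 0.0777, and 0.00468 with the block), and EDA2R at 34.6 ± 6.59, 30.2 ± 4.83 and 27.1 ± 0.92 CPM (0.27 ± 0.145, adjusted p = 0.523, and 0.341 with the block). A p that misses the threshold does not show that the siRNAs act alike, and fold changes against siNTC share the same 4 control libraries.

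**Figure D5:**
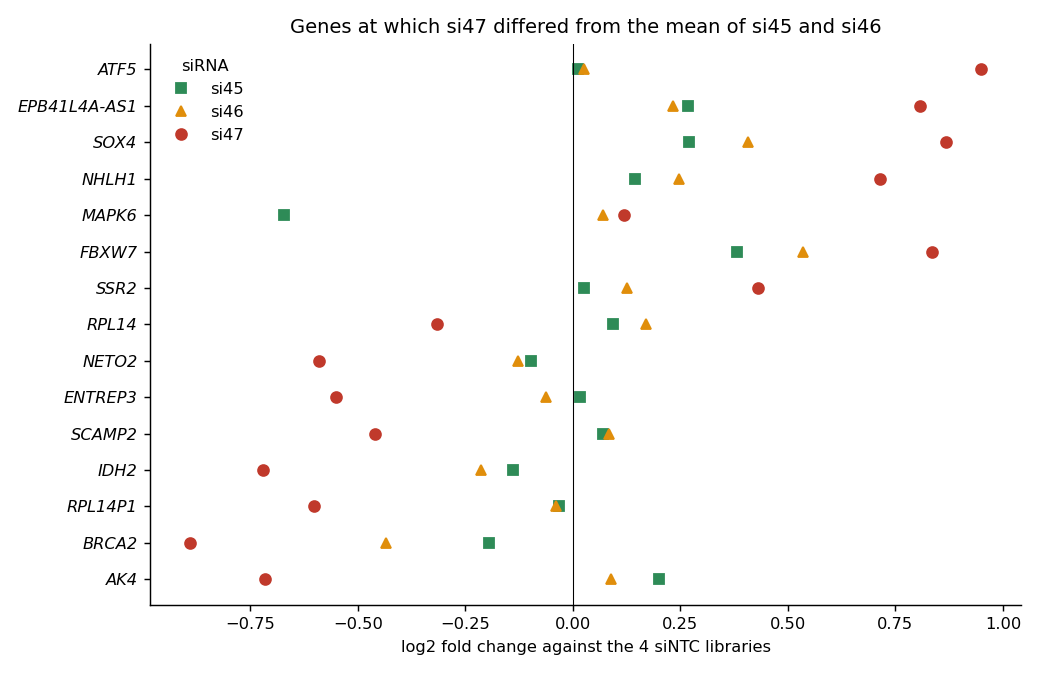
Log2 fold change against siNTC (x axis) with si45 (squares), si46 (triangles) and si47 (circles) for 15 genes named from the direct test of si47 against the mean of si45 and si46. All 3 sets of points share the 4 control libraries, and the si47 circle lies outside the other markers at SOX4, AK4 and BRCA2.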

How the data were processed

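Total RNA of IMR32 cells was extracted with a column kit and DNase, made into QuantSeq 3' libraries with 15 PCR cycles and read single-end, per the labels' protocols. The authors deposited 1 table of raw counts, whole numbers per Ensembl gene identifier and not normalized. The submitters' processing notes name GRCh38, FastQC 0.11.7, STAR 2.7.2b, edgeR 3.36.0 and limma 3.50.3 without roles; the counter, annotation, use of strand and treatment of molecular identifiers and multi-mapping reads are not given in the sources used here. Symbols matched 58434 identifiers, and 58515 are in GENCODE v29, which gave positions. Groups follow the siRNA named in each sample's labels.

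The test was edgeR 4.0.16, run in R 4.3.3 (filterByExpr with minimum count 10 and minimum total 15, TMM, robust quasi-likelihood fit of 4 group means over all 16 libraries, Benjamini-Hochberg, threshold 0.05). CPM uses TMM library sizes. Standard errors are the log2 fold change divided by the square root of F. Libraries of a group differed by a chi-square of 4.36 to 9.80 per degree of freedom, so none was entered more than once. Permutation tests used log2(CPM + 1) for TPX2. The fit was tested on simulated data. Replicate numbers come from the labels. Deviations from the group mean of si47 libraries and of the mean of same-numbered si45 and si46 libraries correlated at 0.21, 0.23, 0.29 and 0.18, so for the test of si47 against those siRNAs the numbers were taken as pairs and values with the number as a block are given beside it. With single libraries of the same number the correlations were 0.21, 0.23, 0.24 and 0.12 for si45 and 0.09, 0.13, 0.21 and 0.14 for si46. The correlations with siNTC given below are with single libraries, so they compare with these and not with those of the mean. This pairing check was added after the calls were known.

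Gene lists are described by counts and medians, with no test. The genes and lists were chosen with earlier results of these data known. Named genes are TPX2, AURKA and MYCN, then, among changed genes with a mean count of at least 20, the 10 highest and 10 lowest protein-coding log2 fold changes, the 5 highest and 5 lowest of other types, the 5 lowest p each way, up to 4 changed members of each list by p, and up to 8 genes each way from the test against si45 and si46. Genes printed because they failed the test, or as further list members, were chosen after their values were seen. Some genes that the rule names are not reported here. Alternatives were DESeq2 1.42.0, limma 3.58.1 (voom), other scalings and filters, a replicate block, fewer libraries and a stricter threshold.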

Additional observations from a re-analysis of the deposited data

Results flagged for a closer look

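Each named gene, gene list score and class share was examined in the 4 libraries of each group for a library whose gap to its nearest neighbour was above Dixon's critical value for 4 samples (the gap as a share of the group's range). Of 500 groups 24 had one, where chance alone gives about 25, or 1 in 20. In si47 replicate 3 these were PIF1 (69.2 CPM), FBXO5 (66.9 CPM), HJURP (69.6 CPM), DPYSL5 (49.1 CPM), PLXNA2 (34.3 CPM), EFNA2 (51.2 CPM), IGFBP5 (139 CPM), the translation initiation list (0.054 log2 units above the controls) and the catecholamine and granule list (0.10). In si47 replicate 1 they were MCM3 (124 CPM), CPE (115 CPM) and SNORD13 (168 CPM). NHLH1 stood apart in si47 replicate 2 (135 CPM) and CCNH in si47 replicate 4 (10.5 CPM).

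Among the controls, siNTC replicate 2 stood apart at GADD45B (1.25 CPM), SYT4 (46.9 CPM) and SNORD12B (0 CPM). siNTC replicate 4 did so at SNORD83A (1.39 CPM), MCM3 (246 CPM), RRM2B (9.71 CPM) and the sterol list (0.0605). siNTC replicate 3 did so at MIR301A (6.62 CPM) and MAP1LC3B (12.9 CPM), and siNTC replicate 1 in the share of counts in small nuclear RNA genes (0.257%).

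The direct test of si47 against the mean of si45 and si46 gave 28 genes. The log2 differences of the 15 named ones were -0.58 for BRCA2, -0.86 for AK4, 0.53 for SOX4, 0.56 for EPB41L4A-AS1, 0.42 for MAPK6, 0.52 for NHLH1, 0.93 for ATF5, 0.36 for SSR2, 0.38 for FBXW7, -0.53 for ENTREP3, -0.57 for RPL14P1, -0.48 for NETO2, -0.54 for IDH2, -0.45 for RPL14 and -0.54 for SCAMP2. Without a replicate block, 22 of the 28 lost the call without at least 1 si47 or siNTC library, and 6 kept it without each. No si45 or si46 library was left out. RPL14 and its copy RPL14P1 may share reads.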

How the results depend on the processing

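DESeq2 called 1617 genes, 1381 of them among the 1382, and limma's voom 1335. Other scalings gave 1378 and 1368, the 8 libraries alone 1283, no filter 1532 and a minimum of 10 counts in every library 1188. With an adjusted p under 0.01 the count was 673. Without single libraries it was 932 to 1664, and the lower genes were 406 to 826. The test against si45 and si46 gave 150 genes with DESeq2, 132 with no filter and 9 to 145 with single si47 or siNTC libraries left out. With at least 10 counts in every library 134 genes were past 2-fold, and the medians of the immediate early genes and small nucleolar RNAs were 0.78 and 0.11. With no filter the NF-kB and SOX medians were 0.17 and 0.47, and with voom that of axon guidance was -0.082. No named gene that was called changed sign. Of 3130 values of 199 named genes under the alternatives, 265 lost the call and 11 gained it, and of 704 list medians 665 moved by less than the spread of the si47 libraries. The cause of these shifts was not tested.

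Medians without single libraries ran from 0.85 to 1.25 for p53 targets in cell death, 0.30 to 0.665 for small nucleolar RNAs, -0.44 to -0.33 for recombination, -0.31 to -0.23 for sterol synthesis, -0.16 to -0.0896 for nucleotide synthesis, 0.10 to 0.24 for catecholamine genes, 0.0098 to 0.18 for NF-kB, 0.0786 to 0.22 for SOX factors, -0.0774 to 0.0344 for axon guidance, -0.0728 to 0.0374 for LIN28B, -1.07 to 0.24 for blood, endothelial and epithelial markers (1 gene tested), -0.11 to 0.0673 for hypoxia, -0.0568 to 0.0341 for interferon, 0.0535 to 0.0924 for lysosome and 0.0203 to 0.072 for mitochondrial ribosomal proteins.

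With the replicate number as a block 2198 genes changed (1068 genes higher, 1130 genes lower) and 405 differed from si45 and si46. The labels do not say that a number marks a shared batch. Deviations of si47 and siNTC libraries with the same number correlated at 0.09, 0.11, 0.07 and 0.02, and over the more abundant genes at 0.11, 0.21, 0.11 and 0.03, so the numbers were not taken to pair si47 with siNTC. As a hint of pairing, on the second principal component of the 16 libraries the replicate numbered 2 was the highest in each group (12.3 to 27.9) and the replicate numbered 3 lay at -12.6 to -10.1. Replicates 3 and 4 of si47 did not correlate best with their own number in siNTC. All 1382 genes were among the 2198.

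Of the higher genes, 44 had at most 3 counts in every control library, and their fold changes depend on the prior count.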

Other observations

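By gene type, small nuclear RNA genes were higher in 29% of 69 tested (20 genes, 1 lower) and small nucleolar RNA genes in 26.5% of 68, against 4.53% of 11754 protein-coding genes (532 higher, 634 lower). The limit set by the filter, given above for small nucleolar RNAs, holds for these shares too. Long intergenic non-coding RNAs were higher in 7.35% of 476 tested and antisense genes in 6.65% of 556, with 9 and 5 lower. Small nuclear RNA genes took 0.343%, 0.296%, 0.425% and 0.265% of counts in si47 replicates 1 to 4 and 0.257%, 0.342%, 0.355% and 0.339% in the controls, ranges that overlap.

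Lower genes were more frequent among abundant transcripts. With the tested genes in 5 equal groups by mean level, in the lowest group 4.74% were higher and 0.702% lower, and in the highest 6.87% were higher and 11.2% lower. Protein-coding genes were also put in 5 groups by the length of their longest transcript in GENCODE v29. In the shortest group 5.83% were higher and 3.28% lower, and in the longest 3.83% were higher and 7.57% lower. The part of level and length in the calls was not tested.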
